A study of Homo sapiens with 39 samples.

Results

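Genes that build ribosomes were followed in 4 human B cell lymphoma lines after 6 h with inhibitors of bromodomains, the protein modules that read acetylated histones. The set is a list of 44 gene symbols with roles in RNA polymerase I transcription, ribosomal RNA modification, nucleolar structure and the assembly of both ribosomal subunits, many of them known as targets of the transcription factor MYC. Members were taken as the rows of the raw count table whose Ensembl ID maps to a listed symbol. All 44 were found, and all 44 were among the 12814 genes that passed the filter on low counts and were tested.

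The 39 libraries fall into 13 groups of 3, and every group is defined by a line and a compound given for 6 h. DOHH2 and Toledo are established lines of germinal centre B cell type, and OCILy10 and TMD8 are established lines of activated B cell type. Each line received DMSO (the solvent, as vehicle control), NEO2734 (a compound that blocks BET and CBP/p300 bromodomains) or OTX015 (birabresib, which blocks BET bromodomains). CB103, which blocks NOTCH-dependent transcription, was given to OCILy10 alone. Line, compound and 6 h are taken from each sample's own labels. The treatment text that all samples share differs, naming vorinostat and pracinostat and both 6 h and 14 days, and this conflict in the labels could not be settled. No dose is stated in the labels, so the compounds are not known to be matched. Separate cultures are not stated either, and p-values therefore measure only the spread between libraries, which may be technical. Each type of lymphoma is represented by a pair of cultured lines without stroma or other cells of a tumour.

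A ribosome is assembled from ribosomal RNA and proteins in a sequence that begins in the nucleolus. RNA polymerase I makes a long precursor RNA there, small nucleolar ribonucleoproteins (snoRNPs) guide its chemical modification, and separate chains of assembly factors cut, fold and export the small and the large subunit. MYC is known to activate genes at each of these steps, often through the DNA hexamer called the E-box, and lymphoma cells depend on high ribosome output to grow.

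Between 1000281 and 11668542 counts were assigned per library. In 15 deep libraries the total was at least 6670250, and in 24 shallow ones at most 3420458. The deep set holds at least 1 library of each group, so that values within each depth class could be given beside the pooled ones, although the fit of deep libraries alone has only 2 residual degrees of freedom, both from OCILy10. In 3 libraries, genes private to another line were found at more than 10% of their level in that line. They are replicate 2 of Toledo with DMSO (OCILy10 genes at 73.1%, its own at 45.7%), replicate 2 of OCILy10 with CB103 (Toledo genes at 31.5%, its own at 73.2%) and replicate 3 of DOHH2 with NEO2734 (OCILy10 genes at 12.3%, its own at 77.3%). All 7 B cell markers looked up were in the table, with a summed level of 1132 to 5024 CPM (each library's counts scaled to a common total, with TMM factors). Of these 7, 4 fell with NEO2734 and 3 with OTX015 in the mean of the lines. Of 8 T cell markers, the 3 in the table summed to 0 to 120 CPM with DMSO, 0 to 13.9 with NEO2734, 0 to 25.6 with OTX015 and 32.2 to 107 with CB103. Of these 3, TRAC alone fell with NEO2734 and with OTX015 in the mean of the lines. With DMSO, TRAC ranged from 22.1 to 63.9 CPM in OCILy10 and from 0 to 31.1 in Toledo. It reached at most 1.94 CPM in DOHH2 and 0.554 in TMD8. Of 6 monocyte markers, the 3 in the table summed to at most 6.09 CPM in any library. The part of these markers in the results below was not tested.

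Promoter sequence was looked up because MYC is known to act often through the E-box. Many of the 44 are known MYC targets, so their E-box share is not independent of how the list was made. RefSeq promoters on GRCh38.p14, taken as 250 bases before to 50 bases after the start of transcription, were matched by symbol for 37 of the 44 genes. The E-box CACGTG, which reads the same on both strands, was found in 16 of the 37 (43.2%). It was present in 29 of 105 other ribosome biogenesis genes (27.6%), in 12.8% of 9583 tested genes with a promoter and in 8.77% of all 27305 promoters. It began upstream of the start in 7 of the 16 genes and downstream in 9, and in 14 it began within 40 bases of the start. The motif CCGGAAG, recognised by ETS family factors, was found on either strand in 37.8% of the 37 and in 23.7% of tested genes. GGGCGG, the GC-box, was found on either strand in 70.3% of the 37 and in 76.0% of tested genes. Motifs were counted separately, and matches of different motifs may share bases.

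The stretches below show the 7 promoters with an E-box before the start, and those of TTC27, the gene with the largest change, and POLR1C, a polymerase subunit with a small change, in neither of which the hexamer occurs. Each runs 5′ to 3′ on the gene's own strand, with the E-box in capitals. RefSeq starts can differ from the GENCODE gene starts given further on. All end at the RefSeq start of transcription except that of PRMT3, whose E-box lies 187 bases upstream of the RefSeq start. In order, they lie at chr3:51941904-51941983 (minus strand), chr12:101280026-101280105 (plus), chr11:34105550-34105629 (plus), chr16:69132570-69132649 (plus), chr10:68956568-68956647 (plus), chr4:4290021-4290100 (minus), chr11:20387496-20387575 (plus), chr2:32627971-32628050 (plus) and chr6:43517010-43517089 (plus).
RRP9: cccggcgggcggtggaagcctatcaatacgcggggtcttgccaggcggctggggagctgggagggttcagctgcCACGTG
UTP20: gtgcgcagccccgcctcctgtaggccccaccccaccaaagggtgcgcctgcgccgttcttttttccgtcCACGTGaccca
NAT10: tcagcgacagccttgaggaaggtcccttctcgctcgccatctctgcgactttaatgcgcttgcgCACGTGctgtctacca
UTP4: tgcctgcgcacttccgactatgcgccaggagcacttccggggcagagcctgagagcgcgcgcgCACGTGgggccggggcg
DDX21: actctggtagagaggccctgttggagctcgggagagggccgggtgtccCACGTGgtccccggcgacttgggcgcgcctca
LYAR: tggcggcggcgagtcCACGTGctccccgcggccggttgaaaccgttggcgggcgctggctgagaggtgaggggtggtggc
PRMT3: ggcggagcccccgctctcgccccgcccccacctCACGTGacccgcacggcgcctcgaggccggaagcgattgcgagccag
TTC27: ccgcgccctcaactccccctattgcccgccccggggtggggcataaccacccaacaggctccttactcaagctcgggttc
POLR1C: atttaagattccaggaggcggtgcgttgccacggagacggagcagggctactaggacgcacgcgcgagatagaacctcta

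A match is a description of the letters and not a measured binding site. In RRP9, which encodes a snoRNP-associated protein of the small subunit processome, the hexamer ends at the start, and in UTP20 it begins 10 bases before it.

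With NEO2734, 35 of the 44 genes fell in the mean of the 4 lines and 0 rose, against 11.2% of all tested genes that were lower (edgeR quasi-likelihood test, Benjamini-Hochberg adjusted p under 0.05, called below). The list was chosen with earlier results of these data known, so the contrast with all tested genes is a description and not a test. All 44 log2 changes were below 0, with a median of -0.50, while the median over all tested genes was -0.02. The TMM scaling holds that all-gene median near 0. The changes are therefore relative, and a fall shared by most genes would not show. In such bulk libraries fewer cells of a type and less RNA per cell cannot be told apart. With OTX015, 13 of 44 fell and 0 rose, against 6.06% of tested genes, and the median was -0.35 with 42 of 44 below 0. With the replicate number as a block 22 were called, the 13 and GNL3, HEATR1, NIP7, NOLC1, NOP16, POLR1C, TSR1, UTP4 and WDR12. Same-numbered libraries deviated together with OTX015 in DOHH2 and TMD8 only, where they also share their depth class. Counts of called genes by role are given without the block. Shares of all tested genes, here and below, belong to that main fit of all libraries. None are given for other fits. All 13 were among the 35, but the 2 comparisons share their DMSO libraries. The heat map of changes by line shows that DOHH2 with NEO2734 was the deepest column and that TTC27 was the row with the most calls.

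**Figure D1:**
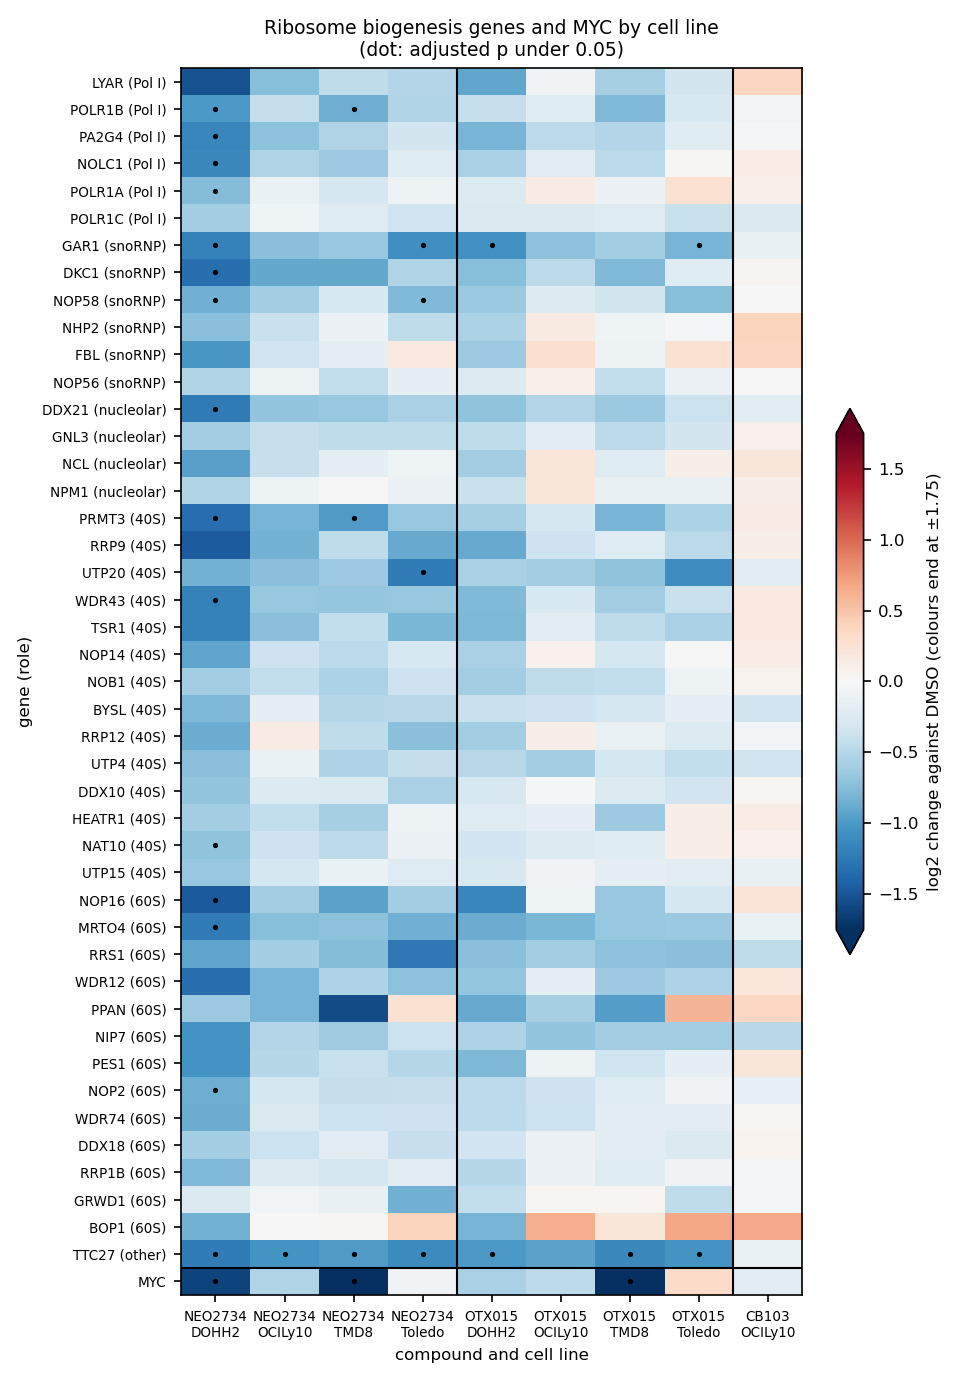
Log2 change against DMSO (colour, saturated at the ends of the scale) of 44 ribosome biogenesis genes, in rows by role, and MYC, in the last row, for each compound and cell line in columns. Dots mark an adjusted p under 0.05, which 15 of the 44 genes have with NEO2734 in DOHH2 and 0 have with CB103.

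The median was below 0 in each depth class, while the number of calls moved. Among deep libraries each arm holds 1 library, except 2 each for OCILy10 with DMSO and with NEO2734, so the fit of deep libraries has little power and its low counts say little. In deep libraries alone, 10 of 44 genes were called lower with NEO2734 (median -0.45, all 44 below 0) and 0 with OTX015 (median -0.27, 37 below 0). In shallow libraries alone, where 43 of the genes could be tested, 28 were called with NEO2734 (median -0.66) and 18 with OTX015 (median -0.44). Without the 3 mixed libraries the counts were 27 and 12. No share of all tested genes is given for these fits, so the moves of the counts are not read as particular to the members.

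The catalytic core of RNA polymerase I is formed by its largest subunits POLR1A and POLR1B, and POLR1C is a smaller subunit shared with RNA polymerase III. The same group holds NOLC1, a nucleolar phosphoprotein that chaperones snoRNPs and binds the polymerase, PA2G4, a growth-regulated protein found in nucleolar ribonucleoprotein complexes, and LYAR, a nucleolar zinc finger protein that promotes ribosomal RNA transcription. All 6 fell with NEO2734, against 11.2% of all tested genes, with a median log2 change of -0.65. With OTX015, POLR1B and PA2G4 fell, against 6.06%, and the median of the 6 was -0.36.

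POLR1B (chr2:112541915-112577150, plus strand, GENCODE 29 on GRCh38) had the lowest p of this group. In DOHH2, POLR1B stood at 147, 162 and 145 CPM with DMSO, at 79.7, 79.6 and 65.8 with NEO2734, and at 127, 114 and 101 with OTX015. In OCILy10 it was 118, 130.0 and 116 CPM with DMSO, 104, 99.8 and 69.3 with NEO2734, and 118, 119 and 75.5 with OTX015. In TMD8 it was 141, 117 and 149.9 CPM with DMSO, 86.6, 61.2 and 77.2 with NEO2734, and 93.0, 59.5 and 86.3 with OTX015. Every NEO2734 library of these lines was below every DMSO library of the same line. In Toledo, POLR1B was 146, 117 and 156 CPM with DMSO, 74.4, 99.6 and 115 with NEO2734, and 114, 108 and 122 with OTX015. The NEO2734 and DMSO libraries were apart there too, whereas those with OTX015 were apart from DMSO in DOHH2 and TMD8 and overlapped it in OCILy10 and Toledo. The mean log2 change of POLR1B was -0.70 ± 0.10 with NEO2734 (SE, adjusted p = 7.76e-06) and -0.42 ± 0.10 with OTX015 (adjusted p = 0.00533).

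POLR1A (chr2:86020216-86106155, minus strand) had the lowest p of the 44 for a difference between the compounds. In DOHH2, POLR1A stood at 165, 233 and 235 CPM with DMSO, at 117, 132 and 126 with NEO2734, and at 177, 191 and 166 with OTX015. The OCILy10 libraries had 71.2, 134 and 110.4 CPM with DMSO, 97.7, 109 and 83.1 with NEO2734, and 119.7, 112 and 115 with OTX015. Only the DOHH2 libraries of these lines were apart, and only with NEO2734. In TMD8, POLR1A was 191, 175 and 184 CPM with DMSO, 159, 137 and 151 with NEO2734, and 178, 151 and 184 with OTX015. In Toledo it was 128.5, 128 and 161 CPM with DMSO, 120.2, 152 and 118 with NEO2734, and 158, 174 and 169.6 with OTX015. The NEO2734 libraries of TMD8 were below its DMSO libraries, and those of Toledo overlapped them. POLR1A fell by 0.32 ± 0.09 on the log2 scale with NEO2734 in the mean of the lines (adjusted p = 0.00953). With OTX015 its mean change was 0.02 ± 0.09, the smallest in size of the 44, and it was -0.05 in shallow libraries alone.

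POLR1C (chr6:43509702-43562419, plus strand) overlaps exons of YIPF3, AL355802.2 and XPO5 on the opposite strand, so its counts may hold their reads. In DOHH2, POLR1C was 58.2, 56.3 and 77.0 CPM with DMSO, 41.6, 50.4 and 35.0 with NEO2734, and 48.2, 64.7 and 48.0 with OTX015. OCILy10 showed 108, 75.2 and 74.8 CPM with DMSO, 90.4, 80.2 and 74.2 with NEO2734, and 78.6, 89.0 and 49.6 with OTX015. In DOHH2 the NEO2734 libraries were below the DMSO ones, while all groups of OCILy10 overlapped. In TMD8, POLR1C was 70.7, 71.5 and 84.6 CPM with DMSO, 79.2, 52.5 and 62.0 with NEO2734, and 79.9, 57.4 and 55.3 with OTX015. The Toledo libraries had 62.0, 71.6 and 71.6 CPM with DMSO, 44.4, 67.0 and 50.2 with NEO2734, and 44.5, 51.6 and 61.4 with OTX015. Groups overlapped in these lines except OTX015 and DMSO in Toledo. Its mean log2 change with NEO2734, -0.31 ± 0.11, passed narrowly (adjusted p = 0.0471), and the call was lost without any single one of 16 of the 24 libraries, where adjusted p reached 0.119.

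The other members of the group also fell. LYAR had a mean log2 change of -0.80 ± 0.25 with NEO2734 (adjusted p = 0.019), PA2G4 of -0.68 ± 0.10 (adjusted p = 2.18e-05) and NOLC1 of -0.63 ± 0.10 (adjusted p = 4.45e-05). The LYAR call was lost without replicate 3 of OCILy10 with DMSO or replicate 3 of Toledo with DMSO, where its adjusted p reached 0.0520. In all 4 lines the NOLC1 libraries with NEO2734 were below those with DMSO.

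The box C/D snoRNP proteins FBL, the ribose methyltransferase, NOP56 and NOP58, its scaffold, were considered with the box H/ACA proteins DKC1, the pseudouridine synthase, GAR1 and NHP2. Of these 6, 5 fell with NEO2734 and 3 with OTX015, against 11.2% and 6.06% of all tested genes. FBL did not pass with either, at -0.34 ± 0.28 and -0.04 ± 0.28. The scaffold gene NOP58 fell by 0.62 ± 0.11 with NEO2734 and by 0.48 ± 0.11 with OTX015 on the log2 scale, and DKC1 fell by 0.91 ± 0.13 and 0.54 ± 0.13. NOP56 passed with NEO2734 alone, at -0.30 ± 0.10, and so did NHP2, at -0.42 ± 0.14. Of these, the NHP2 call was lost without any single one of 12 of the 24 libraries and the NOP56 call without any single one of 6. The table holds 2 named pseudogenes of NOP56, and its counts are uncertain to that extent.

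GAR1 (chr4:109815510-109824740, plus strand) had the lowest p of the snoRNP proteins. In DOHH2, GAR1 stood at 68.8, 57.5 and 75.7 CPM with DMSO, at 34.0, 27.4 and 27.1 with NEO2734, and at 37.1, 32.4 and 26.5 with OTX015. In OCILy10 it was 115, 79.0 and 80.3 CPM with DMSO, 62.2, 50.5 and 52.2 with NEO2734, and 62.0, 56.6 and 48.0 with OTX015. In TMD8 it was 67.5, 65.4 and 53.8 CPM with DMSO, 47.4, 37.2 and 32.1 with NEO2734, and 51.9, 34.4 and 34.7 with OTX015. No treated library of these lines reached a DMSO library of its line. In Toledo, GAR1 was 76.2, 75.4 and 91.1 CPM with DMSO, 31.8, 41.1 and 42.3 with NEO2734, and 40.4, 44.4 and 53.3 with OTX015, again apart. GAR1 fell by 0.91 ± 0.10 on the log2 scale with NEO2734 (adjusted p = 1.38e-07) and by 0.80 ± 0.10 with OTX015 (adjusted p = 4.90e-06). With CB103, which was given to OCILy10 only, GAR1 stood at 84.1, 82.6 and 83.8 CPM, inside the range of its DMSO libraries.

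**Figure D2:**
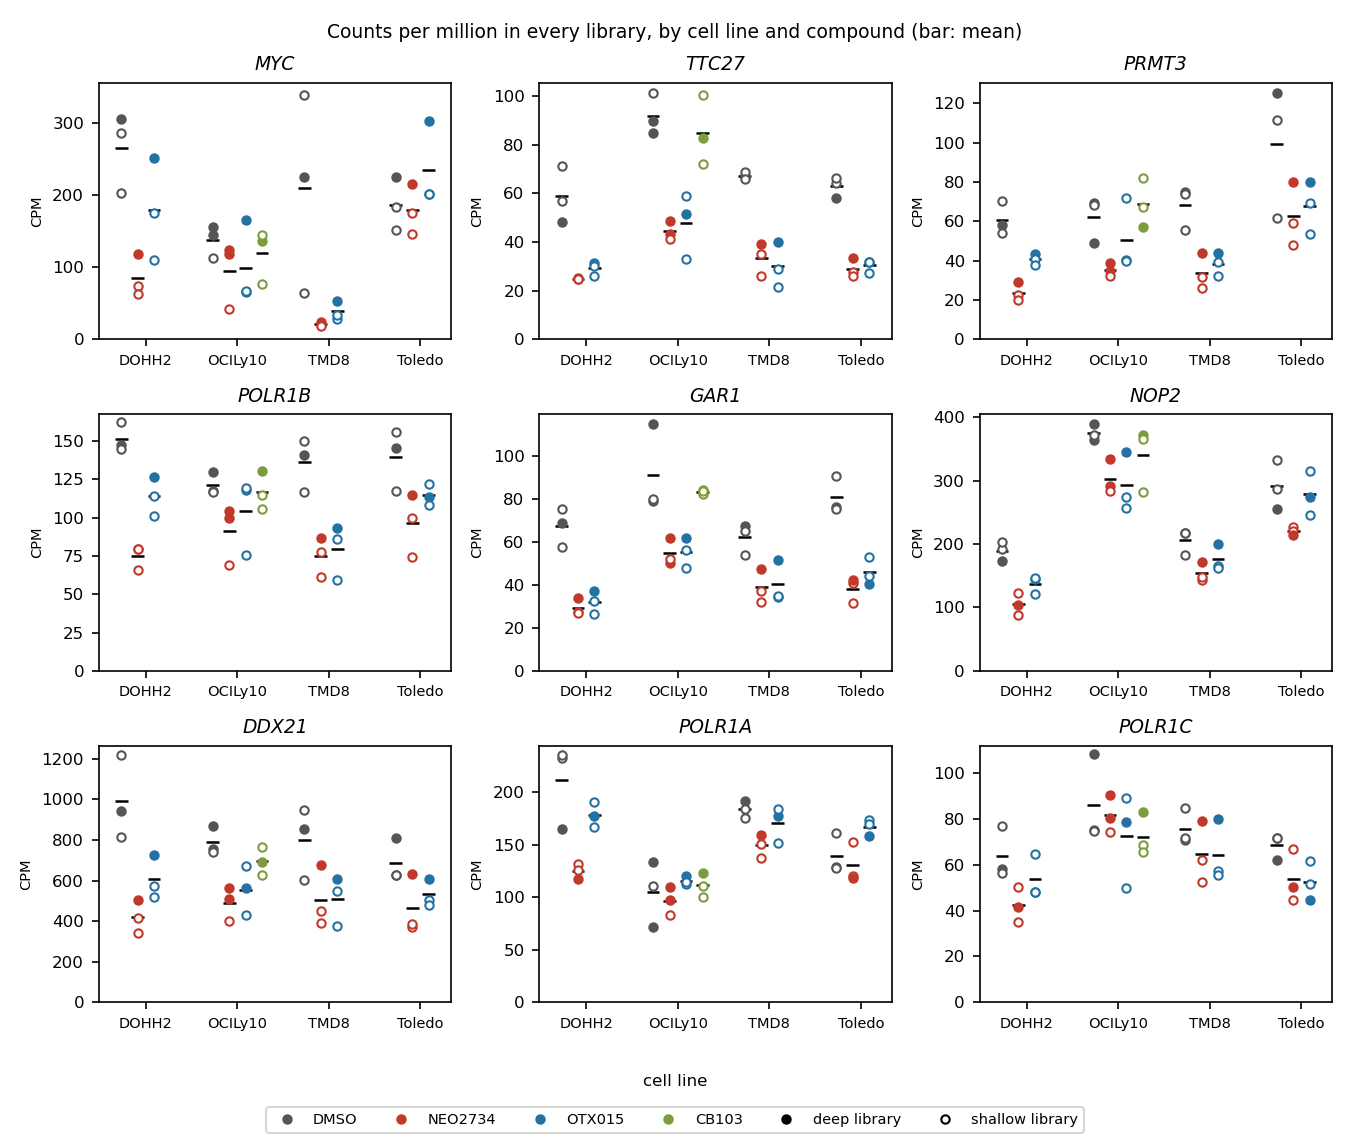
Level in CPM of MYC and 8 ribosome biogenesis genes (y axes, from 0) in each of 39 libraries, by cell line (x axes) and compound (colour), with filled points for deep and open points for shallow libraries and bars for group means of 3. TTC27 and GAR1 are lower than DMSO in every NEO2734 and OTX015 library of each line, while POLR1A overlaps DMSO in OCILy10 and Toledo with NEO2734 and in all 4 lines with OTX015.

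The 4 nucleolar proteins with several functions were the ribosomal RNA chaperones NCL (nucleolin) and NPM1 (nucleophosmin), the RNA helicase DDX21, and the GTPase GNL3 (nucleostemin). DDX21 and GNL3 fell with NEO2734 and DDX21 fell with OTX015, against 11.2% and 6.06% of all tested genes. NCL, at -0.40 ± 0.18 and -0.13 ± 0.18, and NPM1, at -0.18 ± 0.12 and -0.11 ± 0.12, did not pass with NEO2734 or OTX015. Per kilobase of summed exon length these were the genes with the highest level of the 44 in DMSO, with means over the lines of 548 CPM per kilobase for NPM1 and 516 for NCL. The table holds 5 named pseudogenes of NPM1, so reads may have been split between copies.

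DDX21 (chr10:68956128-68985073, plus strand) unwinds RNA in ribosomal RNA synthesis and processing. In DOHH2, DDX21 stood at 943, 816 and 1218 CPM with DMSO, at 502, 416 and 339.5 with NEO2734, and at 726, 574 and 519.6 with OTX015. The OCILy10 libraries had 867, 756 and 743 CPM with DMSO, 561, 508 and 400.1 with NEO2734, and 565, 672 and 428 with OTX015. Both compounds left every library of these lines below the DMSO range. In TMD8, DDX21 was 852, 604 and 946 CPM with DMSO, 676, 390 and 452 with NEO2734, and 609, 374 and 546 with OTX015. In Toledo it was 810.3, 627 and 627 CPM with DMSO, 370, 384 and 635 with NEO2734, and 609, 504 and 481 with OTX015. The deep NEO2734 libraries, 676 CPM in TMD8 and 635 CPM in Toledo, overlapped DMSO there, and among the OTX015 libraries the deep one of TMD8 did. DDX21 fell by 0.79 ± 0.13 with NEO2734 (adjusted p = 3.36e-05) and by 0.56 ± 0.12 with OTX015 (adjusted p = 0.00324) on the log2 scale.

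For the small ribosomal subunit, 11 of 14 genes fell with NEO2734 and 3 with OTX015, against 11.2% and 6.06% of all tested genes. PRMT3 methylates a small subunit protein, UTP20, UTP15, UTP4, WDR43, HEATR1, NOP14, RRP9 and DDX10 belong to or act with the processome that folds and cuts the precursor, NAT10 acetylates ribosomal RNA, and BYSL, TSR1, NOB1 and RRP12 act in late maturation or export. With NEO2734 the largest mean log2 changes were those of PRMT3, RRP9 (-0.90 ± 0.28, adjusted p = 0.0204), UTP20 (-0.85 ± 0.18, adjusted p = 0.00109) and WDR43 (-0.80 ± 0.13, adjusted p = 2.94e-05). The RRP9 call was lost without replicate 2 of Toledo with DMSO, the mixed library (adjusted p = 0.0666). UTP4, NOB1 and RRP12 did not pass, at -0.45 ± 0.32, -0.49 ± 0.26 and -0.48 ± 0.21. BYSL passed narrowly (-0.49 ± 0.18, adjusted p = 0.0495), and its call was lost without any single one of 19 of 24 libraries. NOP14, at -0.51 ± 0.16, lost its call without replicate 3 of OCILy10 with DMSO (adjusted p = 0.0506), and UTP15, at -0.33 ± 0.10, without replicate 3 of OCILy10 with NEO2734 (adjusted p = 0.0511). TSR1 fell by 0.78 ± 0.19, DDX10 by 0.44 ± 0.11, HEATR1 by 0.43 ± 0.10 and NAT10 by 0.40 ± 0.08. With OTX015 the 3 called were UTP20 (-0.74 ± 0.18), PRMT3 and WDR43 (-0.51 ± 0.12).

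PRMT3 (chr11:20387530-20509294, plus strand), whose E-box overlaps the first base of the GENCODE gene, had the lowest p of the small subunit genes. In DOHH2, PRMT3 stood at 58.4, 53.8 and 70.5 CPM with DMSO, at 28.9, 22.4 and 20.2 with NEO2734, and at 43.4, 40.7 and 38 with OTX015. OCILy10 showed 69.5, 49.1 and 68.3 CPM with DMSO, 39, 34.8 and 32.2 with NEO2734, and 40.5, 71.7 and 39.9 with OTX015. In TMD8 it was 75.1, 55.4 and 74.0 CPM with DMSO, 44.1, 31.5 and 26.0 with NEO2734, and 43.8, 32.3 and 39.5 with OTX015. All NEO2734 libraries of these lines were below DMSO, and 1 OTX015 library of OCILy10, at 71.7 CPM, was above every DMSO library. In Toledo, PRMT3 was 125, 61.7 and 112 CPM with DMSO, 48.2, 59.1 and 80.1 with NEO2734, and 80.1, 53.5 and 69.4 with OTX015. Its lowest DMSO value is that of the mixed library, and the groups overlapped. PRMT3 fell by 0.95 ± 0.13 with NEO2734 (adjusted p = 5.69e-06) and by 0.56 ± 0.13 with OTX015 (adjusted p = 0.00465).

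For the large ribosomal subunit, 10 of 13 genes fell with NEO2734 and 3 with OTX015, against 11.2% and 6.06% of all tested genes. PES1, BOP1 and WDR12 form a complex needed for the large subunit RNA, NOP2 is a ribosomal RNA methyltransferase, MRTO4, RRS1, NIP7, NOP16, RRP1B, WDR74, PPAN and GRWD1 are assembly factors, and DDX18 is a helicase. NOP16 had the largest mean log2 change with NEO2734 (-0.90 ± 0.21, adjusted p = 0.00192), followed by MRTO4 (-0.88 ± 0.15, adjusted p = 6.48e-05), RRS1 (-0.88 ± 0.23, adjusted p = 0.00627) and WDR12 (-0.85 ± 0.19, adjusted p = 0.00163). Of the complex, PES1 fell by 0.61 ± 0.18, whereas BOP1, at -0.10 ± 0.35, had the smallest change of the 44 and spread from -0.82 in DOHH2 to 0.39 in Toledo. PPAN, at -0.69 ± 0.41, had 0 to 75 counts per library, and GRWD1 was at -0.31 ± 0.23. Neither passed, and each overlaps another gene on its own strand (P2RY11 and KCNJ14). NIP7 (-0.64 ± 0.22), WDR74 (-0.46 ± 0.14), DDX18 (-0.39 ± 0.12) and RRP1B (-0.38 ± 0.13) passed with NEO2734. The NIP7 call was lost without any single one of 13 libraries and the RRP1B call without any single one of 11. With OTX015, MRTO4 (-0.74 ± 0.15), RRS1 (-0.70 ± 0.23) and NOP2 were called, and the RRS1 call was lost without any single one of 16 libraries.

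NOP2 (chr12:6556863-6568691, minus strand) had the lowest p of the large subunit genes. In DOHH2, NOP2 stood at 173, 192 and 203 CPM with DMSO, at 104, 88.3 and 122 with NEO2734, and at 145, 147 and 122 with OTX015. In OCILy10 it was 389, 364 and 371 CPM with DMSO, 334, 292 and 283 with NEO2734, and 345, 257 and 274 with OTX015. Neither compound overlapped DMSO in these lines. In TMD8, NOP2 was 217, 183 and 217 CPM with DMSO, 171, 143 and 148 with NEO2734, and 199.9, 165 and 163 with OTX015. The Toledo libraries had 255, 333 and 286 CPM with DMSO, 227, 221 and 214 with NEO2734, and 274, 246 and 316 with OTX015. Here the NEO2734 libraries were below DMSO and the OTX015 libraries overlapped it. NOP2 fell by 0.50 ± 0.08 with NEO2734 (adjusted p = 3.32e-05) and by 0.28 ± 0.08 with OTX015 (adjusted p = 0.0187), small changes with a small error.

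TTC27 (chr2:32628032-32821051, plus strand), a tetratricopeptide repeat protein that was not assigned to a step, had the largest change of the 44 with NEO2734 and with OTX015. In DOHH2, TTC27 stood at 48.4, 56.9 and 71.1 CPM with DMSO, at 25.3, 24.9 and 24.9 with NEO2734, and at 31.2, 26.2 and 30.1 with OTX015. The OCILy10 libraries had 89.7, 84.8 and 101 CPM with DMSO, 48.8, 43.5 and 41.2 with NEO2734, and 51.7, 58.8 and 32.9 with OTX015. In TMD8 it was 67.0, 68.7 and 65.8 CPM with DMSO, 39.3, 26.2 and 35.2 with NEO2734, and 40.1, 21.5 and 29 with OTX015. Treated libraries stood apart below DMSO in these lines. In Toledo, TTC27 was 58.2, 64.5 and 66.5 CPM with DMSO, 27.6, 25.9 and 33.3 with NEO2734, and 32, 32 and 27.3 with OTX015, also apart. TTC27 fell by 1.10 ± 0.10 with NEO2734 (adjusted p = 1.64e-08) and by 1.03 ± 0.10 with OTX015 (adjusted p = 1.97e-07) on the log2 scale. With CB103 in OCILy10 it stood at 82.6, 71.9 and 100.4 CPM, overlapping DMSO.

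Within single lines the test called fewer genes, and the lines differed in how many. In DOHH2, 15 of 44 fell with NEO2734, against 1.47% of tested genes lower, and the median log2 change was -0.86. They were NOP16 (-1.47 ± 0.42), PRMT3 (-1.34 ± 0.27), DKC1 (-1.32 ± 0.27), DDX21 (-1.24 ± 0.25), TTC27 (-1.23 ± 0.21), MRTO4 (-1.22 ± 0.30), WDR43 (-1.19 ± 0.25), GAR1 (-1.18 ± 0.20), PA2G4 (-1.15 ± 0.21), NOLC1 (-1.13 ± 0.21), POLR1B (-1.01 ± 0.20), NOP2 (-0.86 ± 0.16), NOP58 (-0.84 ± 0.23), POLR1A (-0.75 ± 0.18) and NAT10 (-0.70 ± 0.17), with adjusted p from 0.00120 for GAR1 to 0.0477 for NOP16. With the replicate number as a block, 23 were called. Same-numbered libraries here also share their depth class, so pairing and depth cannot be told apart. The count was 7 without replicate 3 of DOHH2 with DMSO and 8 without replicate 3 with NEO2734, the mixed library. In deep libraries alone, with 1 library an arm, the median was -0.72. Libraries did not overlap and were lower for 33 of 44 genes, against 9.73% of tested genes.

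In the other lines NEO2734 had a median near -0.45 and few calls. In OCILy10 the median was -0.42 and TTC27 alone was called (-1.04 ± 0.21, adjusted p = 0.00927), against 0.359% of tested genes, or 4 genes (TTC27, GAR1, DKC1 and MRTO4) with the replicate block. In TMD8 the median was -0.46 and TTC27 (-0.997 ± 0.21), PRMT3 (-0.996 ± 0.26) and POLR1B (-0.86 ± 0.20) were called, against 1.44% of tested genes, or 6 with the block. In Toledo the median was -0.44 and UTP20 (-1.23 ± 0.37), TTC27 (-1.12 ± 0.21), GAR1 (-1.07 ± 0.20) and NOP58 (-0.77 ± 0.23) were called, against 4.2% of tested genes. The OCILy10 call was lost without replicate 3 with DMSO or replicates 2 or 3 with NEO2734. In TMD8, 1 gene was called without replicates 1 or 3 with DMSO or replicate 3 with NEO2734, and 0 without replicate 2 with NEO2734. In Toledo 2 were called without replicate 2 with DMSO, the mixed library, or replicates 1 or 2 with NEO2734. UTP20 in Toledo rests on that mixed library, which held 223 CPM beside 97.4 and 54.2 in the other DMSO libraries, and 46.3, 40.5 and 72.9 with NEO2734. Without it the UTP20 change was -0.52 (adjusted p = 0.755). Genes lower without overlap numbered 21 in OCILy10 (10.2% of tested genes), 16 in TMD8 (10.6%) and 12 in Toledo (6.57%). GAR1, NOLC1, NOP2, POLR1B, TTC27 and WDR43 were lower without overlap in all 4 lines. The share of all tested genes that were so in all 4 lines was not counted.

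OTX015 within lines called still fewer. In DOHH2 the median was -0.57, and GAR1 (-1.06 ± 0.20, adjusted p = 0.0231) and TTC27 (-1.003 ± 0.21, adjusted p = 0.0402) were called, against 0.0546% of tested genes. With the replicate block MRTO4 was called too (-0.90 ± 0.18, adjusted p = 0.0174, against 0.289 without the block). In TMD8 the median was -0.39, and TTC27 alone was called (-1.13 ± 0.21, adjusted p = 0.00804), against 0.304%, or 4 genes (TTC27, POLR1B, GAR1 and HEATR1) with the block. In Toledo the median was -0.24, and TTC27 (-1.05 ± 0.21, adjusted p = 0.0125) and GAR1 (-0.81 ± 0.20, adjusted p = 0.0256) were called, against 2.59%. In OCILy10 the median was -0.21 and edgeR called 0 of 44, against 0.0312% of tested genes, while 5 had an unadjusted p under 0.05 and DESeq2 called 2. Replicate 2 of OCILy10 is shallow with OTX015 and deep with DMSO, and the part of depth was not tested. In DOHH2, 0 were called without replicates 2 or 3 with DMSO or replicates 2 or 3 with OTX015, and 1 without replicate 1 with OTX015. In TMD8, 0 were called without replicates 2 or 3 with OTX015. In Toledo, 0 were called without replicate 2 with DMSO, the mixed library, or replicates 2 or 3 with OTX015, 1 without replicate 1 with OTX015, and 4 without replicate 1 with DMSO. Genes lower without overlap numbered 18 in DOHH2 (6.52% of tested genes), 5 in OCILy10 (6.97%), 12 in TMD8 (7.9%) and 6 in Toledo (4.82%). GAR1 and TTC27 were lower without overlap in all 4 lines, and the share of all tested genes that were so was not counted.

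A difference in the response between the lines was tested directly. The edgeR F-test called 0 of 44 genes for NEO2734, against 0.0156% of tested genes, and NOLC1 (adjusted p = 0.651) and POLR1A (adjusted p = 0.774) were the 2 with an unadjusted p under 0.05. PA2G4, NOP2 and NAT10 followed, with adjusted p from 0.835 to 1. For OTX015 it called 0 of 44, against 0% of tested genes, with 0 at an unadjusted p under 0.05, and HEATR1, NOLC1, POLR1A, POLR1B and PA2G4 had the lowest p, each with an adjusted p of 1. DESeq2 was not run for these F-tests. The lower median of DOHH2 is therefore given as a value, and a difference from the other lines was not shown for any member.

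The levels with DMSO differed between lines for 15 of 44 genes, a smaller share than the 48.1% of tested genes. The Toledo means given here include the mixed library. NOP2 differed most clearly, with mean levels of 189.6 CPM in DOHH2, 375 in OCILy10, 206 in TMD8 and 292 in Toledo (adjusted p = 1.32e-05). POLR1A was 211 CPM in DOHH2, 105 in OCILy10, 183 in TMD8 and 139 in Toledo. NOP58 was 510.5, 660.4, 367 and 296 CPM in the same order, DDX10 was 95.6, 103, 52.7 and 113, and NOP56 was 578, 850.2, 443 and 563. No line was the highest for all of these genes. In shallow libraries alone 9 of the genes were called.

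MYC itself was read in each library, to set its change beside that of the ribosome biogenesis genes. In DOHH2, MYC stood at 306, 286.5 and 203 CPM with DMSO, at 118, 74.6 and 63.7 with NEO2734, and at 252, 176 and 110.4 with OTX015. In TMD8 it was 226, 64.3 and 339.8 CPM with DMSO, 24.0, 19.7 and 19.1 with NEO2734, and 53.9, 28.7 and 34.2 with OTX015. The NEO2734 libraries of both lines and the OTX015 libraries of TMD8 were below DMSO, although the DMSO values of TMD8 were themselves spread widely. In OCILy10, MYC was 155, 144 and 113 CPM with DMSO, 118, 124 and 42.8 with NEO2734, 165, 65.6 and 66.8 with OTX015, and 136, 145 and 76.5 with CB103. In Toledo it was 226, 152 (the mixed library) and 183 CPM with DMSO, 176, 147 and 216 with NEO2734, and 303, 202 and 202 with OTX015. Groups of these lines overlapped.

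The MYC change and the median of the ribosome biogenesis genes are given side by side for each line, and their order was not tested. With NEO2734, MYC fell by 3.31 ± 0.49 on the log2 scale in TMD8 (adjusted p = 0.000201), where the median of the 44 genes was -0.46. In DOHH2, MYC fell by 1.63 ± 0.45 (adjusted p = 0.0420), beside the lowest median, -0.86. In Toledo the MYC change was -0.06 ± 0.44 (adjusted p = 0.996), beside a median of -0.44. The interval of that MYC change, from -0.95 to 0.84, includes the median, so a fall of MYC of that size could not be told from none. The DMSO group of Toledo includes the mixed library, and with 1 library left out the MYC change ranged from -0.21 to 0.12. In OCILy10 the values were -0.53 ± 0.44 and -0.42, and the MYC change was -0.18 without replicate 3 with NEO2734. With OTX015, MYC changed by -2.41 ± 0.46 in TMD8 (adjusted p = 0.0122), and was at -0.56 ± 0.44 in DOHH2, -0.46 ± 0.44 in OCILy10 and 0.34 ± 0.44 in Toledo, beside medians of -0.39, -0.57, -0.21 and -0.24 in the same order. Single libraries moved these MYC changes by over 1.5 times except in TMD8, where the change ranged from -2.84 to -1.89 with OTX015. In DOHH2 the change was -0.31 without replicate 3 and -0.89 without replicate 1 with OTX015. In OCILy10 it was -1.06 without replicate 1 and -0.23 without replicate 2 or replicate 3 with OTX015. In Toledo it was 0.11 without replicate 1 with OTX015, and 0.20 without replicate 2 with DMSO, the mixed library. The medians describe the list and carry no test.

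**Figure D3:**
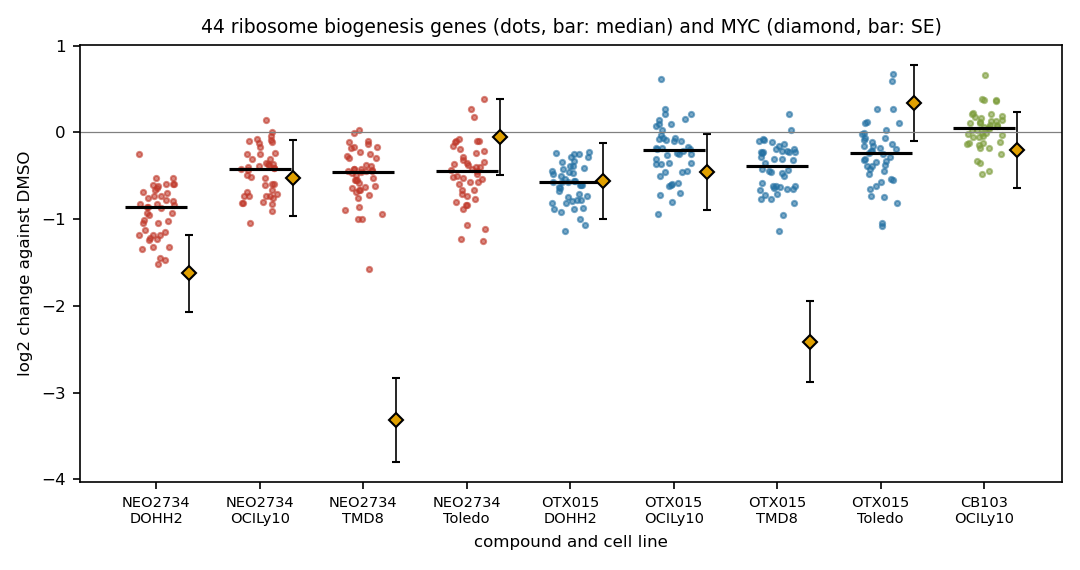
Log2 change against DMSO (y axis) of the 44 ribosome biogenesis genes (dots, with their median as a bar) and of MYC (diamond, with its SE) for each compound and cell line (x axis). The NEO2734 medians of TMD8 and Toledo are -0.46 and -0.44, while MYC is at -3.31 and -0.06. The DMSO group of Toledo includes a mixed library.

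In the mean of the lines MYC fell by 1.38 ± 0.22 with NEO2734 (adjusted p = 4.39e-05) and by 0.77 ± 0.22 with OTX015 (adjusted p = 0.0196). Without replicate 3 of TMD8 with DMSO the OTX015 change of MYC did not pass (adjusted p = 0.0576). The F-test for a difference of the MYC change between lines gave an adjusted p of 0.276 for NEO2734 (0.0161 with the replicate block) and of 1 for OTX015. In DOHH2 with NEO2734 the MYC call was lost without any of the 3 DMSO libraries or replicates 2 or 3 with NEO2734 (adjusted p up to 0.200), and in TMD8 with OTX015 without replicate 3 with DMSO or replicates 2 or 3 with OTX015 (adjusted p up to 0.147). In deep libraries alone, MYC was at -1.40 in DOHH2, -0.31 in OCILy10, -3.25 in TMD8 and -0.09 in Toledo with NEO2734, beside medians of -0.72, -0.33, -0.36 and -0.39 for the 44 genes. In shallow libraries alone MYC was at -1.79, -1.38, -3.38 and -0.09, beside medians of -0.98, -0.61, -0.50 and -0.52. The deep values of DOHH2, TMD8 and Toledo rest on 1 treated and 1 DMSO library each, so no order of the lines is read from them.

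Single libraries showed the same spread. Each library was set against the DMSO mean of its line on a scale of log2(CPM + 1), and the median over the 44 genes was taken. The 3 TMD8 libraries with NEO2734 had MYC at -2.78, -3.05 and -3.09 and medians of -0.37, -0.51 and -0.45. The 3 Toledo libraries with NEO2734 had MYC at -0.07, -0.33 and 0.22 and medians of -0.37, -0.37 and -0.44. The DMSO mean of Toledo includes the mixed library. Among the DMSO libraries of TMD8, MYC ranged from -1.39 to 0.99, while the medians ranged from -0.08 to 0.17. In DOHH2 with NEO2734 the medians were -0.81, -0.94 and -0.92, the lowest of all 39 libraries. In OCILy10, the OTX015 library with a median above 0, replicate 2 at 0.04, had MYC at -1.04.

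**Figure D4:**
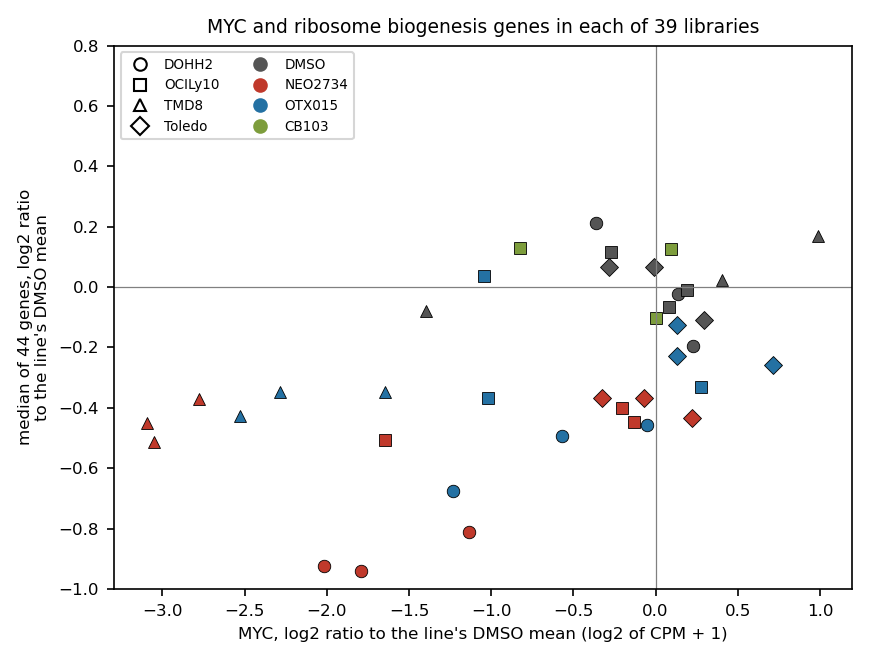
MYC (x axis) and the median of 44 ribosome biogenesis genes (y axis), each as log2 ratio to the DMSO mean of the same line, in 39 libraries marked by line (shape) and compound (colour). The TMD8 libraries with NEO2734 lie at the far left and the Toledo ones near 0 on the x axis, at medians between -0.37 and -0.51. The DMSO mean of Toledo includes a mixed library.

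NEO2734 and OTX015 were compared with each other in the mean of the lines. The compounds differ in that NEO2734 also inhibits the bromodomains of CBP/p300, and no dose is given by which to match them. All 44 differences were below 0, meaning lower with NEO2734, with a median of -0.22 (38 of 44 below 0 and a median of -0.17 in deep libraries alone), but edgeR called 0 of 44, against 0.0312% of tested genes, and DESeq2 also called 0. The unadjusted p was under 0.05 for 9 genes, whose 95% intervals excluded 0. POLR1A had the lowest, with a log2 difference of -0.33 (95% interval -0.51 to -0.15, adjusted p = 0.569). PRMT3 differed by -0.39 (-0.66 to -0.12) and NOLC1 by -0.33 (-0.54 to -0.12). At the other end, TTC27 differed by -0.06 (-0.28 to 0.15), GAR1 by -0.11 (-0.31 to 0.09) and UTP4 by -0.00194 (-0.65 to 0.64). Intervals reached from 0.160 to 0.842 on either side of the difference (median 0.281), so a difference of that size could not be told from none, and a missed threshold does not show that the compounds act alike. The 44 genes are not independent of each other, and the shared direction has no test of its own.

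**Figure D5:**
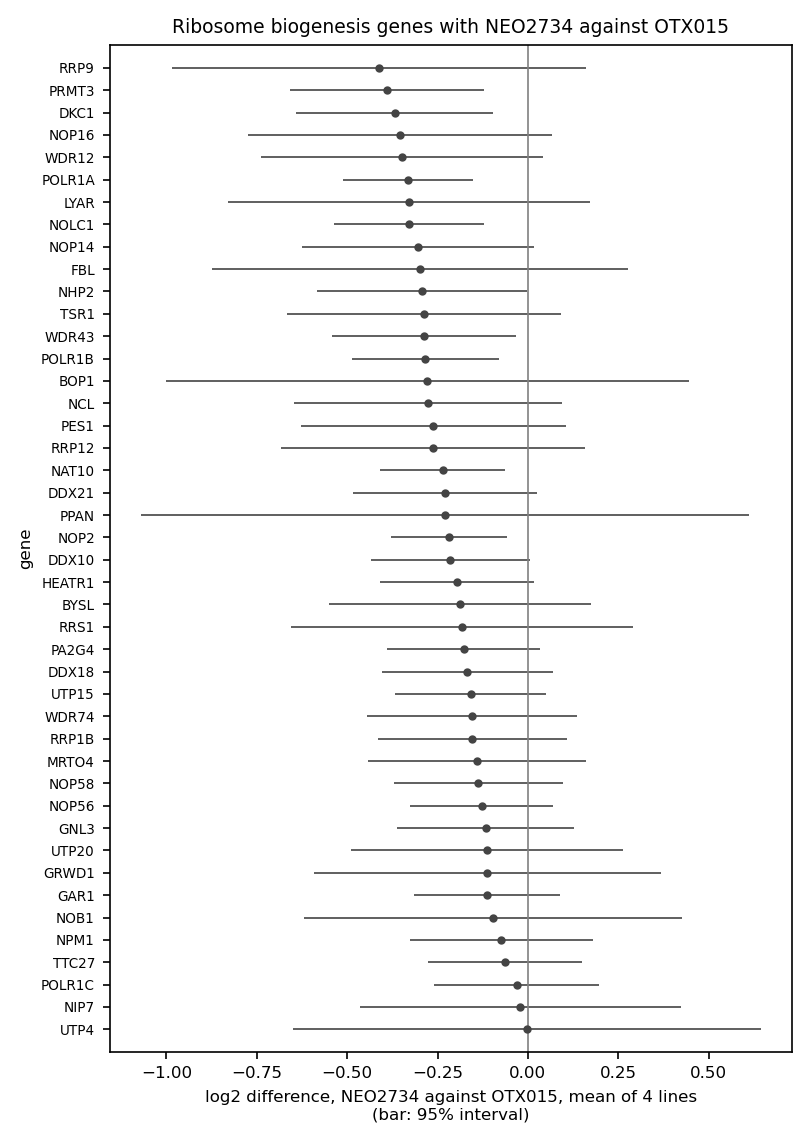
Log2 difference between NEO2734 and OTX015 in the mean of 4 lines (x axis) with its 95% interval for each of 44 ribosome biogenesis genes (y axis). All 44 differences are below 0, and 9 of the 44 intervals exclude 0.

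CB103 in OCILy10 served as a compound of another kind. With it edgeR called 0 of 44 genes, against 0% of tested genes, 0 had an unadjusted p under 0.05 and DESeq2 called 0. The median was 0.05, with 19 genes below 0 and 25 above. The lowest p was that of NHP2 (0.39 ± 0.28, adjusted p = 1), followed by POLR1C (-0.25 ± 0.22) and NIP7 (-0.49 ± 0.43). Replicate 2 of this group is a mixed library, and without the mixed libraries the median was -0.00471. Depth differs too, as replicate 2 is shallow with CB103 and deep with DMSO, and its part was not tested.

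Other genes of the same pathway, which are not on the list of 44, were counted from lists of known factors. These lists too were chosen with earlier results of these data known. With NEO2734, 3 of 13 other genes of RNA polymerase I transcription fell, among them TCOF1 (treacle, -0.97 ± 0.16), UBTF (the upstream binding factor, -0.86 ± 0.15) and POLR1G (a polymerase subunit, -0.98 ± 0.22). Over all tested genes 11.2% were lower with NEO2734 and 6.06% with OTX015. Of other snoRNP genes 4 of 11 fell, of other small subunit genes 22 of 49, and of other large subunit genes 18 of 49. These 122 genes had a median of -0.35, with 47 lower and 0 higher, and OTX015 gave 15 lower and 0 higher with a median of -0.22. The lowest p among them were those of NOL10 (-0.65 ± 0.08) and RPF2 (-0.87 ± 0.12) with NEO2734. Subunits of the other RNA polymerases were counted in the same way. Of the 7 subunits of RNA polymerase II alone, 0 fell and POLR2A, its largest subunit, rose by 1.21 ± 0.22 with NEO2734 and by 1.09 ± 0.22 with OTX015. Of 11 subunits of RNA polymerase III, 2 fell with NEO2734, POLR3G (-0.90 ± 0.14) and POLR3E (-0.37 ± 0.11), and 1 with OTX015, POLR3G (-0.55 ± 0.14), counts too small to set apart from those shares. Of 5 subunits shared by the polymerases, 4 were tested, edgeR called 0 and 0 had an unadjusted p under 0.05.

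The E-box was last set beside the response, as a description. With NEO2734 the median log2 change was -0.70 over the 16 genes with CACGTG in the promoter window, from -0.95 to -0.34, and -0.46 over the 21 without it, from -1.10 to -0.18. With OTX015 the medians were -0.46 and -0.31. With NEO2734, 14 of the 16 and 16 of the 21 were called lower, against 11.2% of all tested genes. With OTX015, 7 of the 16 and 4 of the 21 were, against 6.06%. The ranges overlapped. TTC27, whose promoter is printed above without the hexamer, had the largest change of all. UTP4, which has the hexamer 16 bases before the start, did not pass with NEO2734 or OTX015 in the main fit. It passed with each compound in an alternative fit. The part of the E-box in these changes was not tested.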

How the data were processed

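RNA-seq counts per gene were deposited by the authors for 39 libraries as whole numbers, 15808 gene IDs in 2 tables that differ in 1 column (replicate 1 of OCILy10 with CB103). Per the submitters' processing notes STAR, edgeR and hg38 were used. A version, counting program, annotation or strand setting was not given in the sources used here, so that 16 members with an exon overlap on the opposite strand may hold reads of the other gene. Symbols came from gene IDs (15590 with, 218 without), and coordinates from GENCODE 29. A quasi-likelihood model of the raw counts (edgeR 4.0.16 under R 4.3.3, filterByExpr, TMM, 13 groups, 26 residual degrees of freedom) was fitted, and p-values were adjusted over all 12814 tested genes. Contrasts were each compound against DMSO by line and as the plain mean of 4 lines, NEO2734 against OTX015, and F-tests between lines. The ± of a log2 change is its SE, and intervals are 95%. The fit was tested on simulated data. Alternatives were DESeq2 1.42.0, other scalings, no filter, a replicate block, depth classes, the other column, and leaving out libraries. Same-numbered libraries deviated together (every correlation over 0.1) for NEO2734 in DOHH2, OCILy10 and TMD8 and for OTX015 in DOHH2 and TMD8. These were taken as paired from the data, but same-numbered libraries there also share their depth class, so pairing and depth cannot be told apart. The members and lists were chosen with earlier results of these data known. Values are given in every library for MYC, 3 polymerase subunits and the gene of lowest p in each role, and by fold for every gene called within a line.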

Additional observations from a re-analysis of the deposited data

How the results depend on the processing

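Counts of called genes and MYC changes were recomputed under each alternative. No shares of all tested genes are given beside these counts. In deep libraries alone, calls were 10 for the NEO2734 mean, 0 for the OTX015 mean, and 0 within each of the 4 lines for NEO2734 and in DOHH2, TMD8 and Toledo for OTX015, in a fit with 1 library in most arms and 2 residual degrees of freedom, so these counts say little. MYC there was at -0.45 for the OTX015 mean (adjusted p = 0.142), -1.40 in DOHH2 with NEO2734 (0.443), -3.25 in TMD8 with NEO2734 (0.0586), -2.06 in TMD8 with OTX015 (0.177) and, with the sign turned, 0.12 in OCILy10 with OTX015, and its adjusted p between lines with DMSO was 0.0286. In shallow libraries alone, calls were 0 for NEO2734 in OCILy10 and TMD8, 0 for OTX015 in DOHH2 and TMD8, 1 for OTX015 in Toledo and 9 for lines with DMSO, and MYC was at -1.79 in DOHH2 with NEO2734 (0.0750) and -2.67 in TMD8 with OTX015 (0.0801). With the replicate block, calls were 22 for the OTX015 mean, 23, 4 and 6 for NEO2734 in DOHH2, OCILy10 and TMD8, and 3 and 4 for OTX015 in OCILy10 and TMD8, and MYC differed between lines with NEO2734 (adjusted p = 0.0161). The block changed no other count by over 1.5 times. Without mixed libraries, calls were 8 for NEO2734 in DOHH2, 2 for NEO2734 and 0 for OTX015 in Toledo, and MYC in DOHH2 with NEO2734 was at -1.44 (0.178). DESeq2 called 5 and 7 with NEO2734 in OCILy10 and Toledo, and 2, 2 and 4 with OTX015 in OCILy10, TMD8 and Toledo. Median-of-ratios scaling gave 2 for NEO2734 in OCILy10, and library totals gave 1 for OTX015 in OCILy10. Without the low-count filter, calls were 2 for NEO2734 in Toledo and 1 for OTX015 in DOHH2, with MYC at -1.59 in DOHH2 (0.0665). The other deposited column gave 1 and 2 for NEO2734 in TMD8 and Toledo and 1 for OTX015 in DOHH2, with MYC at -1.59 in DOHH2 (0.0715). The cause of these differences was not tested. For the OTX015 mean the sign turned for genes that had not passed: POLR1A (-0.0538) and BOP1 (-0.11) in shallow libraries, and NHP2 (0.12), RRP9 (0.0140), RRP12 (0.31), RRP1B (0.000222) and GRWD1 (0.19) in deep ones.

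With 1 library left out at a time, calls ranged from 28 to 34 for the NEO2734 mean and from 12 to 18 for the OTX015 mean, and 25 of the 35 and 12 of the 13 calls remained in all 24 fits. Within lines they ranged, for NEO2734, from 7 to 16 in DOHH2, 0 to 1 in OCILy10, 0 to 3 in TMD8 and 2 to 4 in Toledo, for OTX015 from 0 to 2 in DOHH2, 0 to 1 in TMD8 and 0 to 4 in Toledo, and from 10 to 17 for lines with DMSO. MYC ranged from -0.92 to -0.64 for the OTX015 mean, -1.94 to -1.45 in DOHH2, -0.76 to -0.18 in OCILy10 and -0.21 to 0.12 in Toledo with NEO2734, -0.89 to -0.31 in DOHH2, -1.06 to -0.23 in OCILy10, -2.84 to -1.89 in TMD8 and 0.11 to 0.45 in Toledo with OTX015 and -0.36 to 0.0371 with CB103, and its adjusted p between lines with NEO2734 from 0.0144 to 0.513. BOP1 ranged from -0.24 to 0.0397 for the NEO2734 mean, and POLR1A from -0.0488 to 0.0704 and FBL from -0.12 to 0.14 for the OTX015 mean.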
